A study of Homo sapiens with 8 samples.

Results

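In 2 human pancreatic ductal adenocarcinoma (PDA) cell lines, Panc.05.04 and Panc.10.05, a set of genes differed in opposite directions between cells given a small interfering RNA (siRNA) against PDX1 and cells given a control siRNA. The 113 rows described here were at least 1.5-fold higher with PDX1 siRNA in the first line and at least 1.5-fold lower in the second, or the reverse. They were chosen by the log2 ratio of the PDX1 siRNA to the control siRNA library, taken on FPKM + 1 (sequenced fragments scaled to transcript length and library size) within a line, among 12110 of 28520 rows with a mean of at least 1 FPKM over 8 libraries. A total of 35 rows (0.289% of 12110) were higher in Panc.05.04 and lower in Panc.10.05, and 78 rows (0.644%) were lower in Panc.05.04 and higher in Panc.10.05. Because those ratios chose the rows, their sizes in these 2 lines are given as a description, with no test.

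The libraries came from 4 established PDA lines, Panc.05.04, Panc.10.05, Panc.8 and HPAF-II, each transfected with PDX1 siRNA or with control siRNA and collected 3 days later. All groups are therefore transfected tumor cells in culture, and no untransfected sample was used. Each line and treatment had 1 library, so no ratio within a line has a replicate check, and the difference between 2 lines cannot be told apart from the variation between single cultures. FPKM summed to between 371000 and 429000 per library, and 11186 to 11477 rows reached 1 FPKM. The number of reads was not given in the sources used here, and the ratio of depths within a line (PDX1 siRNA over control), read from the spacing of the lowest values, was 0.832 in Panc.05.04 and 0.963 in Panc.10.05, with less common spacings at 1.65 and 1.91.

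PDX1 is a homeobox transcription factor that patterns the pancreas in the embryo and maintains beta cell identity in the adult islet, and many PDA cells still express it. NF-kB is a family of transcription factors that turns on chemokine, cytokine and acute-phase genes in inflamed epithelium, and interferons turn on a further set of defence genes. YAP and TAZ are transcriptional coactivators that respond to cell shape and density, and with TEAD factors they drive genes of matrix and adhesion such as CTGF. These pathways recur among the rows below.

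The targeted gene was low in both lines. PDX1 had 0.416 FPKM with PDX1 siRNA and 1.41 FPKM with control siRNA in Panc.05.04, which is 29.5% of the control level. In Panc.10.05 it had 0.0998 FPKM with PDX1 siRNA and 0.188 FPKM with control siRNA, or 53.1% of the control level. Both Panc.10.05 values were under 0.2 FPKM, so the check of the knockdown there rests on a gene close to the lower end of the measurement. For comparison, PDX1 had 0.372 and 0.914 FPKM in the PDX1 siRNA and control siRNA libraries of Panc.8, and 5.37 and 9.61 FPKM in those of HPAF-II.

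Of 6 markers of epithelial carcinoma, all were above 1 FPKM in Panc.10.05, and 3 were under 3 FPKM in Panc.05.04. KRT8 and KRT18, the keratins of simple epithelium, had 394 and 494 FPKM with PDX1 siRNA and 305 and 393 FPKM with control siRNA in Panc.05.04. In Panc.10.05 they had 1258 and 1124 FPKM with PDX1 siRNA and 1641 and 1269 FPKM with control siRNA. The ductal keratin KRT19 had only 0.921 FPKM with PDX1 siRNA and 1.55 FPKM with control siRNA in Panc.05.04, while in Panc.10.05 it had 2107 FPKM with PDX1 siRNA and 1758 FPKM with control siRNA. Of the other 3 markers, KRT7 had 0.709 FPKM with PDX1 siRNA and 0.868 FPKM with control siRNA in Panc.05.04, against 736 and 890.2 FPKM with PDX1 siRNA and control siRNA in Panc.10.05. CDH1, the epithelial cadherin, had 2.12 FPKM with PDX1 siRNA and 1.40 FPKM with control siRNA in Panc.05.04, against 86.4 and 76.9 FPKM in Panc.10.05, and EPCAM had 47.2 and 31.96 FPKM in Panc.05.04, against 541 and 328 FPKM in Panc.10.05, in the same order of treatments. KRT19, KRT7 and CDH1 were thus near the low end in Panc.05.04. The 8 fibroblast markers summed to between 0.674 and 5.51 FPKM over the 8 libraries, and the 6 endothelial markers to at most 0.927 FPKM.

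The 2 lines differed in how much of the transcriptome passed the 1.5-fold limit. In Panc.05.04, 164 rows (1.35%) were higher and 235 (1.94%) lower with PDX1 siRNA, whereas in Panc.10.05 1076 rows (8.89%) were higher and 929 (7.67%) lower. The 35 rows higher in Panc.05.04 and lower in Panc.10.05 make up 21.3% of the first line's higher rows and 3.77% of the second line's lower rows. The 78 rows of the reverse direction make up 33.2% of the rows lower in Panc.05.04 and 7.25% of those higher in Panc.10.05. Another 16 rows were higher in both lines and 18 lower in both, so opposite rows outnumbered the 34 rows of one direction.

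Of the 6 pairs of lines, Panc.05.04 and Panc.10.05 had the most opposite rows. Such counts also depend on how many rows pass the limit in each line. In Panc.8 379 rows (3.13%) were higher and 132 (1.09%) lower, and in HPAF-II 72 (0.595%) were higher and 58 (0.479%) lower. The pair counts are therefore not on one scale. By the same rule, 57 rows were opposite and 19 alike between Panc.05.04 and Panc.8, and 22 were opposite and 19 alike between Panc.05.04 and HPAF-II. Between Panc.10.05 and Panc.8 the balance was turned, with 35 opposite rows against 157 alike. Between Panc.10.05 and HPAF-II 21 rows were opposite and 24 alike, and between Panc.8 and HPAF-II 8 were opposite and 26 alike. Across the 12110 rows, which share libraries and are not independent replicates, Pearson's r between the log2 ratios of Panc.05.04 and Panc.10.05 was -0.132 and Spearman's rho was -0.204. The plot of the 2 ratios row by row shows a cloud centred near 0, with medians over all rows of 0.03 in Panc.05.04 and -0.00 in Panc.10.05.

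**Figure D1:**
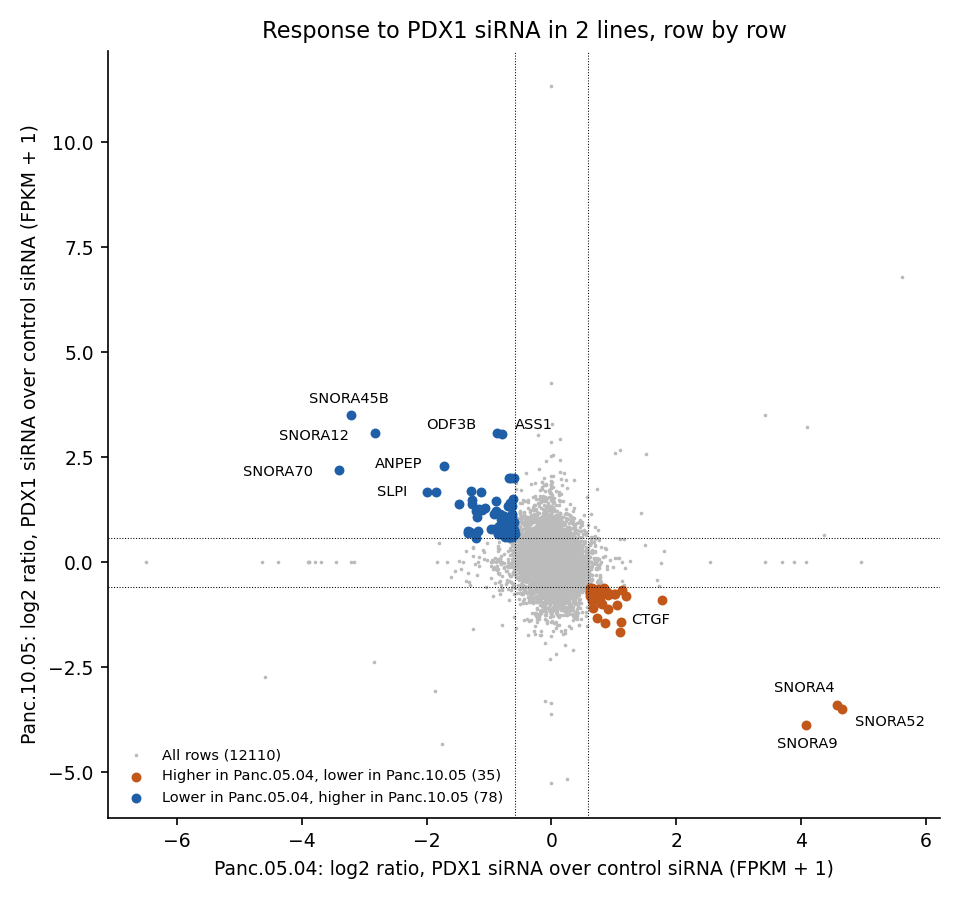
Log2 ratio of PDX1 siRNA over control siRNA on FPKM + 1 in Panc.05.04 (x axis) and Panc.10.05 (y axis), 1 point per row for 12110 rows. Dotted lines mark 1.5-fold. The 35 rows in orange lie in the lower right and the 78 rows in blue in the upper left, and 6 labelled small RNA rows lie far from the others.

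Of the 113 rows, 99 are protein-coding, 5 are long noncoding, 8 are small RNAs and 1 is a pseudogene by RefSeq gene type. Among the 35 rows higher in Panc.05.04 and lower in Panc.10.05 there are 25 protein-coding rows, 4 long noncoding rows, 5 small RNA rows and the pseudogene SFTA1P. The 78 rows of the reverse direction hold 74 protein-coding rows, 1 long noncoding row and 3 small RNA rows. The members farthest from the others are the small RNA rows SNORA52, SNORA4 and SNORA9 on one side and SNORA45B, SNORA12 and SNORA70 on the other, small nucleolar RNAs named here because their values set them apart. Each of these 6 is listed at 0 in 1 or more of the 4 libraries, so no fold is given for them. The other 2 small RNA rows, SNORD17 and SCARNA9L, had values above 0 in all 4 libraries. SFTA1P had 93.3 FPKM with PDX1 siRNA and 51.00 FPKM with control siRNA in Panc.05.04, and 11.7 FPKM with PDX1 siRNA and 33.8 FPKM with control siRNA in Panc.10.05.

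Promoter letters of 5 protein-coding members of the YAP and TAZ target list or the NF-kB list, and of 1 interferon-inducible member, are printed. They let the sequence next to these starts be read beside the values. They come from RefSeq on GRCh38.p14, 5′ to 3′ on the gene's strand, from the 250 bases before the annotated start, and bases that a GENCODE exon covers were left out. They were picked because they hold the motif named, after the matches were seen. Capitals mark TEAD's GGAATG in CTGF, the AP-1 motif TGANTCA in CXCL8, the NF-kB consensus in CXCL1, CXCL3 and LCN2, and the interferon response motif GAAANNGAA in IFI6, each searched on both strands.
CTGF: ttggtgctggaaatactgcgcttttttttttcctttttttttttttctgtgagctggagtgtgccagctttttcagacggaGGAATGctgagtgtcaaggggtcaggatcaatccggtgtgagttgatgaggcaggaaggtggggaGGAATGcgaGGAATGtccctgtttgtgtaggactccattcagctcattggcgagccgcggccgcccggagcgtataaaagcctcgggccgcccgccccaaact
CXCL8: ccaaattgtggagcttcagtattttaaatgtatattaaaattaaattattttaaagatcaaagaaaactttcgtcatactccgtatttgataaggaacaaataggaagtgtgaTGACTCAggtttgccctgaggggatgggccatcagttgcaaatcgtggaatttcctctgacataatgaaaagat
CXCL1: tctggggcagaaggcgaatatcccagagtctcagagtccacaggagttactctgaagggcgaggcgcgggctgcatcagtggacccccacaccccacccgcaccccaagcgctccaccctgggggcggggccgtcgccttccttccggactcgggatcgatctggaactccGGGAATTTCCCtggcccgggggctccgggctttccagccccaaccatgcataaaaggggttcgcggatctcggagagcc
CXCL3: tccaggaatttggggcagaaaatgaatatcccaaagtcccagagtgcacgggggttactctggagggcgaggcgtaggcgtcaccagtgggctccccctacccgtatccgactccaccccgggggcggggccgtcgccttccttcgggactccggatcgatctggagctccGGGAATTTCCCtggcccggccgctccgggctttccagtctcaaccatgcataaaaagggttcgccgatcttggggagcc
LCN2: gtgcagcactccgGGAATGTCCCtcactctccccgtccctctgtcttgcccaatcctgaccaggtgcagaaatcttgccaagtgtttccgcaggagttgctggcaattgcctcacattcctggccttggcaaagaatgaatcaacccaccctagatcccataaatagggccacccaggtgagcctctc
IFI6: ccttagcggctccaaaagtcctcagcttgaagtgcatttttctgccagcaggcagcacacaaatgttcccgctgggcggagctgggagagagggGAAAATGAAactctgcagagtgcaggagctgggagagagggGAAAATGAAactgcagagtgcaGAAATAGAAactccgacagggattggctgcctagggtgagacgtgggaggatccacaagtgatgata

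The CTGF run is chr6:131951374-131951622, minus strand, where RefSeq names the gene CCN2, and it holds 3 GGAATG matches between 169 and 95 bases before the start. The CXCL8 run is chr4:73740319-73740505, plus strand, the CXCL1 run chr4:73869143-73869392, plus strand, and the CXCL3 run chr4:74038690-74038939, minus strand. The NF-kB consensus letters of CXCL1 and CXCL3, 2 paralogous chemokine genes, lie at the same distance, with 2 overlapping matches that begin 79 and 78 bases before each start. In LCN2 the consensus overlaps a GGAATG. The motifs do not separate the gene groups, since CTGF and DPF1 of the first direction also hold the NF-kB consensus, which overlaps a GGAATG in the CTGF run and is not marked there, and CXCL3 also holds GAAANNGAA. The LCN2 run is chr9:128149265-128149452, plus strand, and the IFI6 run is chr1:27672219-27672442, minus strand, with 3 matches between 156 and 93 bases before the start. Over windows from 250 bases before to 50 after the start, GGAATG was in 10.4% of the 9113 promoters matched to rows compared, TGANTCA in 4.75%, the NF-kB consensus in 6.64% and GAAANNGAA in 6.23%. Promoters were matched for 60.0% of the 30 rows higher in Panc.05.04 and 68.9% of the 74 rows lower there that have a symbol of their own and are not small RNAs, so a share over the members is void and is not given. Of the 11 opposite NF-kB and cytokine genes described below, 8 were matched. BCL3, CXCL1, CXCL3 and LCN2 held a strict match to the NF-kB consensus in this window, while ZC3H12A, PTGS2, IL1B and CXCL8 did not. The CXCL8 run holds tggaatttcc, which differs from the searched consensus only in its first letter. A missing match therefore does not show that a site is absent. A match is a string of letters and not a measured binding site.

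Genes higher with PDX1 siRNA in Panc.05.04 and lower in Panc.10.05 included genes of the matrix and of the cytoskeleton. CTGF, a matricellular growth factor at chr6:131948177-131951378 (hg38), had 234 FPKM in the PDX1 siRNA and 107 FPKM in the control siRNA library of Panc.05.04, against 1.45 and 5.604 FPKM in the PDX1 siRNA and control siRNA libraries of Panc.10.05. The 2 lines stood far apart already with control siRNA, and the gap was wider with PDX1 siRNA, with log2 ratios of 1.12 in Panc.05.04 and -1.43 in Panc.10.05. RHOB, a small GTPase of the actin cytoskeleton, had 33.4 FPKM with PDX1 siRNA and 16.2 FPKM with control siRNA in Panc.05.04, and 26.9 FPKM with PDX1 siRNA and 46.1 FPKM with control siRNA in Panc.10.05. Its control levels were nearer to each other, with Panc.10.05 the higher, and the order of the lines turned with PDX1 siRNA.

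Metabolic enzymes and carriers showed the same directions. CTPS1 makes CTP for nucleic acid synthesis, and it had 69.8 FPKM with PDX1 siRNA and 33.2 FPKM with control siRNA in Panc.05.04, and 9.88 FPKM with PDX1 siRNA and 20.9 FPKM with control siRNA in Panc.10.05. This is a difference of 2.06 between the log2 ratios, with each ratio close to 1 in size (1.05 in Panc.05.04 and -1.01 in Panc.10.05). SLC7A11, the cystine carrier that feeds glutathione synthesis, had 24.03 FPKM in the PDX1 siRNA and 13.6 FPKM in the control siRNA library of Panc.05.04, against 1.58 and 3.56 FPKM in the PDX1 siRNA and control siRNA libraries of Panc.10.05. BEST3, a member of the bestrophin chloride channel family, had 5.45 FPKM with PDX1 siRNA and 1.81 FPKM with control siRNA in Panc.05.04, and 0.105 FPKM with PDX1 siRNA and 0.94 FPKM with control siRNA in Panc.10.05. JPH1, a junctophilin that ties plasma membrane to endoplasmic reticulum, had 4.45 FPKM in the PDX1 siRNA and 1.92 FPKM in the control siRNA library of Panc.05.04, against 5.13 and 9.49 FPKM in the PDX1 siRNA and control siRNA libraries of Panc.10.05. BEST3 was under 1 FPKM in both Panc.10.05 libraries, so its ratio there rests on low values.

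Regulatory genes of the same direction included NOCT, a circadian gene first described as a deadenylase, which had 25.2 FPKM in the PDX1 siRNA and 14.8 FPKM in the control siRNA library of Panc.05.04, against 1.05 and 4.16 FPKM in the PDX1 siRNA and control siRNA libraries of Panc.10.05. ANKRD37, a gene that hypoxia-inducible factor is known to activate, had 41.6 FPKM with PDX1 siRNA and 19.98 FPKM with control siRNA in Panc.05.04, and 1.12 FPKM with PDX1 siRNA and 2.598 FPKM with control siRNA in Panc.10.05. HSPB8, a small heat shock protein, had 9.64 FPKM in the PDX1 siRNA and 3.84 FPKM in the control siRNA library of Panc.05.04, against 1.301 and 2.64 FPKM in the PDX1 siRNA and control siRNA libraries of Panc.10.05. All 3 were higher in Panc.05.04 than in Panc.10.05 under both treatments. VEPH1 had 3.74 FPKM with PDX1 siRNA and 1.53 FPKM with control siRNA in Panc.05.04, and 2.21 FPKM with PDX1 siRNA and 5.92 FPKM with control siRNA in Panc.10.05. SH2D5, which encodes an SH2 domain adaptor, had 8.87 FPKM in the PDX1 siRNA and 4.79 FPKM in the control siRNA library of Panc.05.04, against 1.64 and 3.92 FPKM in the PDX1 siRNA and control siRNA libraries of Panc.10.05. For VEPH1, unlike SH2D5, the Panc.10.05 control library held the highest of the 4 values.

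The plot of FPKM for the widest differences in each direction places these values side by side. Every one of the 11 genes in the upper panel is higher with PDX1 siRNA in Panc.05.04 and lower in Panc.10.05, as the rule requires, and 8 of them are also above Panc.10.05 in the Panc.05.04 control library.

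**Figure D2:**
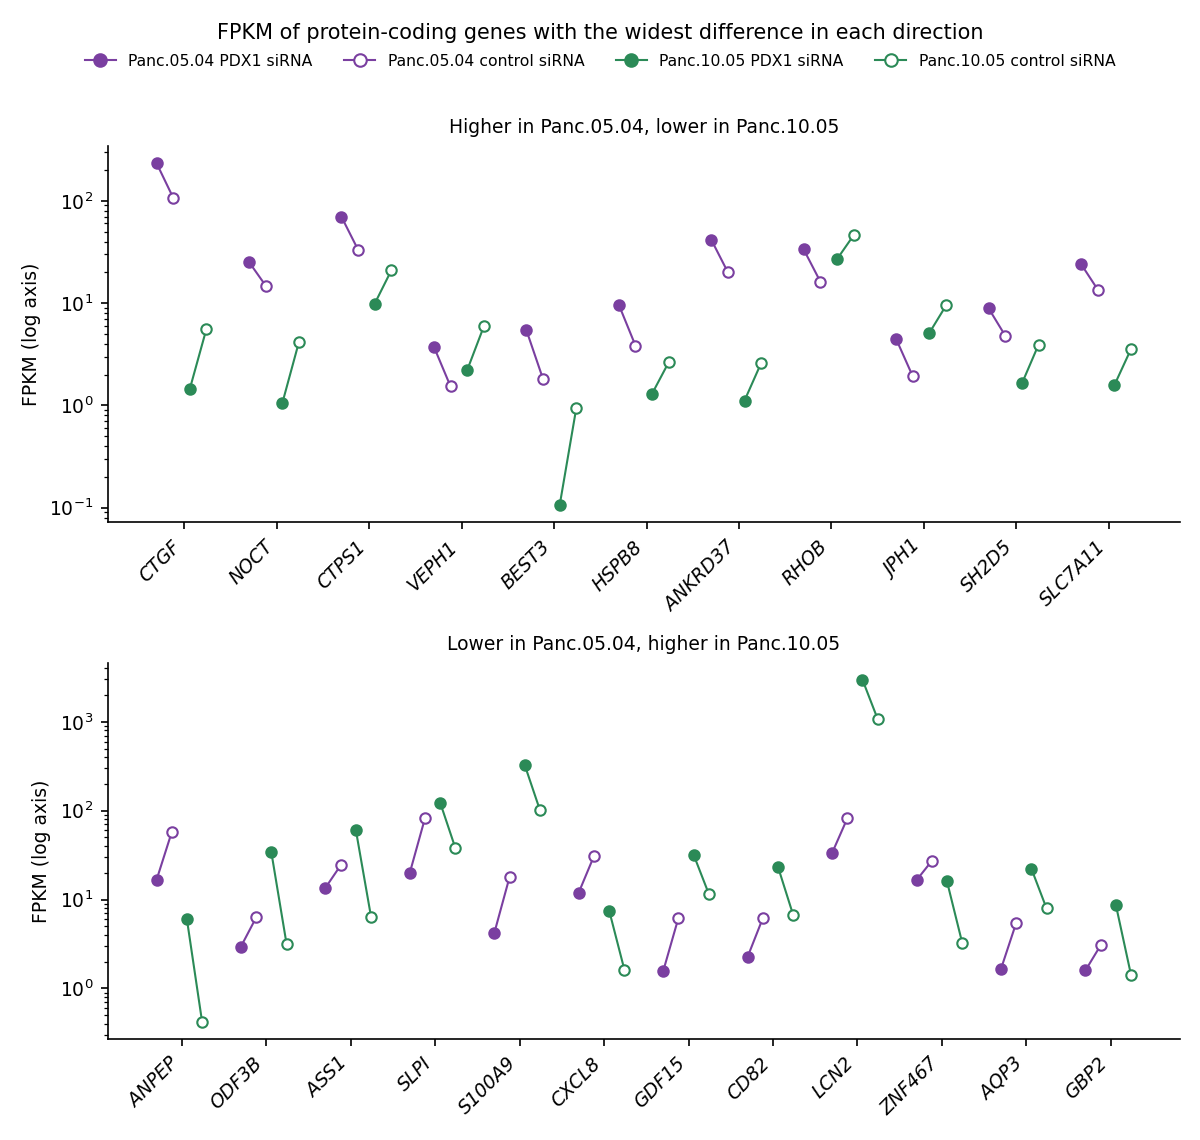
FPKM (log axis) of 11 (upper panel) and 12 (lower panel) protein-coding genes with the widest differences of log2 ratios, with filled points for PDX1 siRNA and open points for control siRNA, purple for Panc.05.04 and green for Panc.10.05, 1 library per point. In the upper panel CTGF spans 234 to 1.45 FPKM over the 4 libraries, and in the lower panel LCN2 spans 2975 to 33.4 FPKM.

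Grouped by known role, after the values were seen, the 25 protein-coding genes of this direction form 3 groups with similar medians. The 8 genes of matrix, adhesion and cytoskeleton (CTGF, RHOB, ARHGAP29, PVR, SEMA7A, PCOLCE2 and DYNC1H1 among them) had median log2 ratios of 0.81 in Panc.05.04 and -0.78 in Panc.10.05. The 7 metabolic, carrier and channel genes (CTPS1, UAP1, SLC7A11, FABP5, BEST3, JPH1 and SMIM4) had 0.78 and -0.81 in the same lines. Among them UAP1, which makes UDP-N-acetylglucosamine, stood at the highest level, with 318 FPKM with PDX1 siRNA and 194 FPKM with control siRNA in Panc.05.04, and 28.5 FPKM with PDX1 siRNA and 52.6 FPKM with control siRNA in Panc.10.05. The other 10 genes (NOCT, VEPH1, HSPB8, ANKRD37, SH2D5, CDC25A, HIST1H4A, ARL14EPL, UBR4 and DPF1) had 0.75 in Panc.05.04 and -0.74 in Panc.10.05. They include CDC25A, a phosphatase that drives entry into S phase, with 15.5 FPKM in the PDX1 siRNA and 9.48 FPKM in the control siRNA library of Panc.05.04, against 2.71 and 6.001 FPKM in the PDX1 siRNA and control siRNA libraries of Panc.10.05.

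The long noncoding rows were few and low. DGUOK-AS1 had 2.46 FPKM with PDX1 siRNA and 0.978 FPKM with control siRNA in Panc.05.04, and 0.569 FPKM with PDX1 siRNA and 2.14 FPKM with control siRNA in Panc.10.05. It was lower with PDX1 siRNA in Panc.8 as well, at 0.13 FPKM against 1.99 FPKM with control siRNA. The same held in HPAF-II, at 0.33 FPKM against 1.21 FPKM with control siRNA. HOXB-AS3, from the HOXB cluster, had 2.78 FPKM in the PDX1 siRNA and 1.17 FPKM in the control siRNA library of Panc.05.04, against 2.98 and 6.76 FPKM in the PDX1 siRNA and control siRNA libraries of Panc.10.05. LOC101929128 had 18.9 FPKM with PDX1 siRNA and 11.4 FPKM with control siRNA in Panc.05.04, and 2.12 FPKM with PDX1 siRNA and 4.001 FPKM with control siRNA in Panc.10.05, the highest of the long noncoding rows. The other 4 stayed under 10 FPKM in these 4 libraries. MED14OS of the same direction had 2.91 FPKM in the PDX1 siRNA and 1.55 FPKM in the control siRNA library of Panc.05.04, against 1.18 and 2.36 FPKM in the PDX1 siRNA and control siRNA libraries of Panc.10.05. TMEM161B-AS1 of the reverse direction had 1.62 FPKM with PDX1 siRNA and 2.94 FPKM with control siRNA in Panc.05.04, and 5.73 FPKM with PDX1 siRNA and 3.25 FPKM with control siRNA in Panc.10.05. Whether the libraries keep strand is not given in the sources used here, so reads of the 4 rows named as antisense or opposite-strand genes cannot be told apart from those of their partners. Of all members, 13 in the first direction and 20 in the reverse direction share their locus interval with another row. The share over all rows is not given here, so these counts serve only as a limit on the members.

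Genes lower with PDX1 siRNA in Panc.05.04 and higher in Panc.10.05 were led by a peptidase, an epithelial defence set and inflammatory genes. ANPEP, the cell surface aminopeptidase CD13, at chr15:89784895-89814840, had 16.6 FPKM with PDX1 siRNA and 57.4 FPKM with control siRNA in Panc.05.04, and 5.98 FPKM with PDX1 siRNA and 0.42 FPKM with control siRNA in Panc.10.05. Its difference of -4.02 was the widest of all protein-coding members, and the order of the lines did not turn. ODF3B had 2.97 FPKM in the PDX1 siRNA and 6.29 FPKM in the control siRNA library of Panc.05.04, against 33.9 and 3.16 FPKM in the PDX1 siRNA and control siRNA libraries of Panc.10.05. ASS1, which makes argininosuccinate on the way to arginine, had 13.6 FPKM with PDX1 siRNA and 24.3 FPKM with control siRNA in Panc.05.04, and 60.97 FPKM with PDX1 siRNA and 6.43 FPKM with control siRNA in Panc.10.05. In ODF3B and ASS1 the larger part of the difference came from Panc.10.05, where the log2 ratios were 3.07 and 3.06, against -0.88 and -0.79 in Panc.05.04.

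Secreted epithelial defence proteins differed widely. SLPI, a secreted inhibitor of neutrophil elastase at chr20:45252239-45254564, had 20.1 FPKM with PDX1 siRNA and 83.1 FPKM with control siRNA in Panc.05.04, and 122 FPKM with PDX1 siRNA and 37.7 FPKM with control siRNA in Panc.10.05. S100A9, a subunit of the antimicrobial protein calprotectin, had 4.21 FPKM in the PDX1 siRNA and 17.9 FPKM in the control siRNA library of Panc.05.04, against 327 and 102 FPKM in the PDX1 siRNA and control siRNA libraries of Panc.10.05. LCN2, which binds bacterial iron carriers, had 33.4 FPKM with PDX1 siRNA and 81.9 FPKM with control siRNA in Panc.05.04, and 2975 FPKM with PDX1 siRNA and 1074 FPKM with control siRNA in Panc.10.05, among the highest levels of any member. For SLPI the lines exchanged order, Panc.10.05 being the higher with PDX1 siRNA and Panc.05.04 the higher with control siRNA, while S100A9 and LCN2 were higher in Panc.10.05 throughout. S100A8, the other calprotectin subunit, had 0.923 FPKM in the PDX1 siRNA and 3.83 FPKM in the control siRNA library of Panc.05.04, against 0.686 and 0 FPKM in the PDX1 siRNA and control siRNA libraries of Panc.10.05, so its Panc.10.05 control value is listed at 0 and no fold is given there. S100A8 and S100A9 lie 29.0 kb apart on chromosome 1.

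Of 15 epithelial defence and protease inhibitor genes compared, 6 were opposite members, all of them lower in Panc.05.04 and higher in Panc.10.05: SLPI, LCN2, S100A8, S100A9, SERPINB1 and SERPINB4. Over the 15 genes the median log2 ratio was -0.63 in Panc.05.04, with 8 at least 1.5-fold lower and 0 higher, and 0.96 in Panc.10.05, with 10 at least 1.5-fold higher and 0 lower. The medians over all rows were 0.03 and -0.00 in the same lines, and 0.644% of all rows were opposite in this direction, 1.94% lower in Panc.05.04 and 8.89% higher in Panc.10.05. SERPINB4 has a close paralog, SERPINB3, and its share of reads is uncertain. It had 0.254 FPKM with PDX1 siRNA and 0.947 FPKM with control siRNA in Panc.05.04, and 1.52 and 0.133 FPKM in Panc.10.05. Its ratios thus rest on low values, and it passed the filter through HPAF-II, with 21.6 and 30.9 FPKM in the same order. DEFB1, PIGR and CSTA were listed at 0 in both Panc.05.04 libraries, so they could not be lower there.

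Chemokine and cytokine genes were opposite in the same direction. CXCL8, the neutrophil chemokine interleukin-8, at chr4:73740506-73743716, had 12.02 FPKM with PDX1 siRNA and 30.9 FPKM with control siRNA in Panc.05.04, and 7.53 FPKM with PDX1 siRNA and 1.63 FPKM with control siRNA in Panc.10.05. CXCL1, its neighbour in the chemokine cluster of chromosome 4, had 51.5 FPKM in the PDX1 siRNA and 119.8 FPKM in the control siRNA library of Panc.05.04, against 8.67 and 3.15 FPKM in the PDX1 siRNA and control siRNA libraries of Panc.10.05. PTGS2, the inducible cyclooxygenase, had 6.71 FPKM with PDX1 siRNA and 16.6 FPKM with control siRNA in Panc.05.04, and 3.91 FPKM with PDX1 siRNA and 1.33 FPKM with control siRNA in Panc.10.05. In these 3 genes the Panc.05.04 control library was the highest of the 4, the Panc.10.05 control library was the lowest, and the 2 PDX1 siRNA libraries lay between them. GDF15, a stress-induced cytokine of the TGF-beta family, had 1.57 FPKM in the PDX1 siRNA and 6.203 FPKM in the control siRNA library of Panc.05.04, against 32.01 and 11.6 FPKM in the PDX1 siRNA and control siRNA libraries of Panc.10.05. It stood higher in Panc.10.05 under both treatments.

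Of 36 NF-kB and inflammatory cytokine genes compared, 11 were opposite in this direction and 0 in the other. They were CXCL8, LCN2, CXCL1, PTGS2, C3, IL1B, SOD2, ZC3H12A, TNFAIP2, BCL3 and CXCL3. Over the 36 genes the median log2 ratio was -0.45 in Panc.05.04, where 16 were at least 1.5-fold lower and 1 higher, and 0.37 in Panc.10.05, where 15 were higher and 0 lower. Set against 1.94% of all rows lower in Panc.05.04 and 8.89% higher in Panc.10.05, both counts were above the background. The list was written with earlier results of these data known, so its counts describe these libraries and are no independent support.

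The rest of the list did not all divide the same way. IL6 and CCL20, which are not opposite members, had log2 ratios of -1.45 and -1.60 in Panc.05.04 and of -0.16 and -0.34 in Panc.10.05. CCL2 had 0.25 in Panc.05.04 and 1.76 in Panc.10.05, and SAA1, an acute-phase gene, had 1.52 and 2.57, higher in both lines. Among NF-kB subunits, NFKB1 had 0.07 in Panc.05.04 and -0.39 in Panc.10.05, REL 0.27 in each line and RELB -0.22 in Panc.05.04 and 0.41 in Panc.10.05, and none of the 3 passed the limit in either line. The bars for each gene of the list show these differences beside the values of Panc.8 and HPAF-II.

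**Figure D3:**
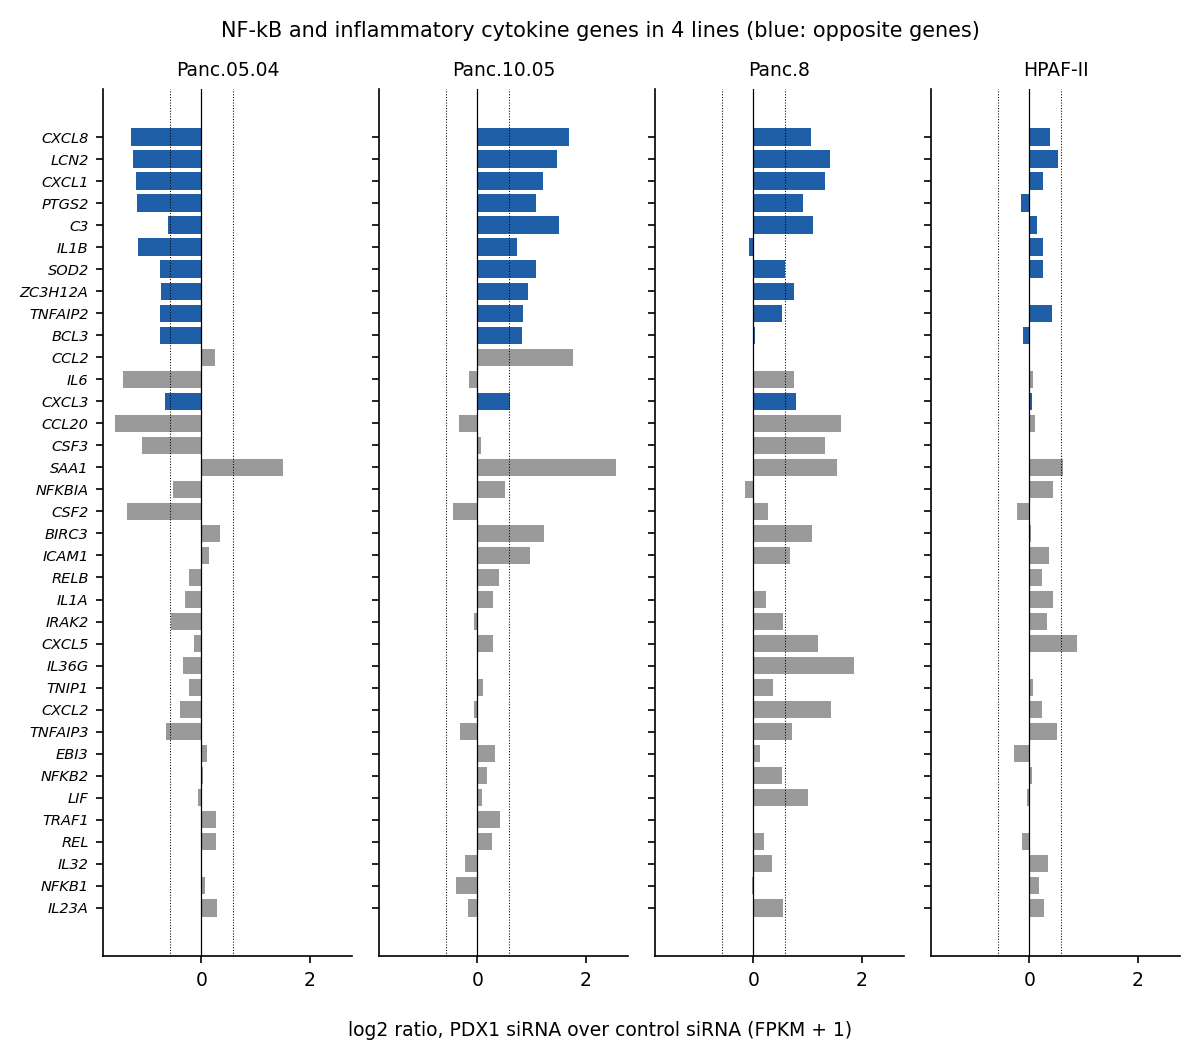
Log2 ratio of PDX1 siRNA over control siRNA on FPKM + 1 for 36 NF-kB and inflammatory cytokine genes in the 4 lines, 1 bar per gene and line, with the 11 opposite genes in blue and the others in grey; dotted lines mark 1.5-fold. The blue bars point left in Panc.05.04 and right in Panc.10.05 by choice of the genes, and 18 of the 36 genes pass 1.5-fold to the right in Panc.8.

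Complement genes beside each other on chromosome 12 were members together. C1S and C1R encode the proteases of the first complement component, and C1RL is a related protease. The 3 rows are separated by 9.18 kb and 2.10 kb. C1R had 0.897 FPKM with PDX1 siRNA and 3.26 FPKM with control siRNA in Panc.05.04, and 9.47 FPKM with PDX1 siRNA and 3.35 FPKM with control siRNA in Panc.10.05. C1S had 2.500 FPKM in the PDX1 siRNA and 7.803 FPKM in the control siRNA library of Panc.05.04, against 6.41 and 3.57 FPKM in the PDX1 siRNA and control siRNA libraries of Panc.10.05. The control levels of the 2 lines were close together for C1R, and for C1S Panc.05.04 was the higher. C1RL had 4.21 FPKM with PDX1 siRNA and 8.66 FPKM with control siRNA in Panc.05.04, and 27.5 FPKM with PDX1 siRNA and 11.2 FPKM with control siRNA in Panc.10.05. The central component C3, on chromosome 19, had 5.12 FPKM in the PDX1 siRNA and 8.34 FPKM in the control siRNA library of Panc.05.04, against 238 and 83.5 FPKM in the PDX1 siRNA and control siRNA libraries of Panc.10.05. C3 was higher in Panc.10.05 under both treatments and its log2 ratio in Panc.05.04, -0.61, was near the limit.

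Interferon-inducible members included IFITM3, the member with the highest mean level over the 4 libraries. It encodes a membrane protein that blocks virus entry, and it had 1690.3 FPKM with PDX1 siRNA and 2818 FPKM with control siRNA in Panc.05.04, and 1337 FPKM with PDX1 siRNA and 741 FPKM with control siRNA in Panc.10.05. IFITM2, 10.3 kb away on chromosome 11, had 613 FPKM in the PDX1 siRNA and 954 FPKM in the control siRNA library of Panc.05.04, against 206 and 130.0 FPKM in the PDX1 siRNA and control siRNA libraries of Panc.10.05. The 2 genes are close paralogs whose reads the counting may split. IFI6, an interferon-induced inhibitor of apoptosis, had 17.9 FPKM with PDX1 siRNA and 28.98 FPKM with control siRNA in Panc.05.04, and 471 FPKM with PDX1 siRNA and 178 FPKM with control siRNA in Panc.10.05. GBP2, an interferon-inducible GTPase, had 1.595 FPKM in the PDX1 siRNA and 3.06 FPKM in the control siRNA library of Panc.05.04, against 8.76 and 1.42 FPKM in the PDX1 siRNA and control siRNA libraries of Panc.10.05. The log2 ratios of IFITM3 were -0.74 in Panc.05.04 and 0.85 in Panc.10.05, whereas GBP2 had -0.65 in Panc.05.04 and 2.01 in Panc.10.05.

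Of 49 interferon-stimulated genes compared, 3 were opposite members (IFI6, IFITM2 and IFITM3), all in this direction. The list's median log2 ratio was -0.20 in Panc.05.04, where 8 genes were at least 1.5-fold lower and 1 higher, and 0.58 in Panc.10.05, where 24 were higher and 1 lower. Of all rows, 0.644% were opposite in this direction, 1.94% were lower in Panc.05.04 and 8.89% higher in Panc.10.05. XAF1 and RTP4 were listed at 0 in both Panc.05.04 libraries, and BST2 had 0.0723 FPKM with PDX1 siRNA and 0.19 FPKM with control siRNA there. On FPKM + 1 such genes could not be 1.5-fold lower in that line, which limits the count of opposite genes. In Panc.8 all 49 genes were at least 1.5-fold higher, with a median of 2.41, and in HPAF-II 5 were higher and 0 lower, with a median of 0.30. IFITM1, just outside the rule with a log2 ratio of -0.58 in Panc.05.04, had 0.736 FPKM with PDX1 siRNA and 1.59 FPKM with control siRNA in Panc.05.04, and 855 FPKM with PDX1 siRNA and 229 FPKM with control siRNA in Panc.10.05.

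Other surface and membrane proteins formed the largest group by role. CD82, a tetraspanin, had 2.27 FPKM with PDX1 siRNA and 6.19 FPKM with control siRNA in Panc.05.04, and 23.3 FPKM with PDX1 siRNA and 6.67 FPKM with control siRNA in Panc.10.05. AQP3, a water and glycerol channel of epithelium, had 1.66 FPKM in the PDX1 siRNA and 5.46 FPKM in the control siRNA library of Panc.05.04, against 22.3 and 7.95 FPKM in the PDX1 siRNA and control siRNA libraries of Panc.10.05. Both were low in Panc.05.04 and lay above it in Panc.10.05 with either siRNA. The group of 16 (CD82 and AQP3, with ANPEP, CD14, CD68, TM4SF1, TNFRSF21, RAMP1, ENG, TMEM45B, MEGF6, SEZ6L2, KRTCAP3, PDZK1IP1 and SLC15A3 among its members) had median log2 ratios of -0.80 in Panc.05.04 and 0.87 in Panc.10.05. KRTCAP3 is listed at 0 in the PDX1 siRNA library of Panc.05.04, so no fold is given for it there.

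CD14 and CD68, genes best known from monocytes and macrophages, were the only leukocyte markers among 7 with a row that had at least 1 FPKM in any library of these 2 lines. CD14 had 0.599 FPKM with PDX1 siRNA and 1.42 FPKM with control siRNA in Panc.05.04, and 17.3 FPKM with PDX1 siRNA and 3.56 FPKM with control siRNA in Panc.10.05. CD68, a lysosomal membrane protein, had 8.35 FPKM in the PDX1 siRNA and 20.7 FPKM in the control siRNA library of Panc.05.04, against 75.7 and 50.1 FPKM in the PDX1 siRNA and control siRNA libraries of Panc.10.05. The marker list summed to 9.0 FPKM with PDX1 siRNA and 22.2 FPKM with control siRNA in Panc.05.04, and to 93.4 FPKM with PDX1 siRNA and 53.9 FPKM with control siRNA in Panc.10.05. The defining lymphocyte markers CD3E, MS4A1 and NKG7 were listed at 0 in these 4 libraries, and ITGAM reached at most 0.38 FPKM.

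Transcription factors of epithelium and inflammation were members as well. ELF3, an ETS factor of epithelial differentiation, had 1.51 FPKM with PDX1 siRNA and 3.64 FPKM with control siRNA in Panc.05.04, and 256 FPKM with PDX1 siRNA and 93.1 FPKM with control siRNA in Panc.10.05. CEBPB, a bZIP factor of acute-phase and stress responses, had 114 FPKM in the PDX1 siRNA and 194 FPKM in the control siRNA library of Panc.05.04, against 129 and 68.6 FPKM in the PDX1 siRNA and control siRNA libraries of Panc.10.05. CEBPD of the same family had 273 FPKM with PDX1 siRNA and 477 FPKM with control siRNA in Panc.05.04, and 116 FPKM with PDX1 siRNA and 53.2 FPKM with control siRNA in Panc.10.05. The 2 CEBP genes were high in both lines, in contrast to ELF3, which was close to the low end in Panc.05.04. ZNF467, a zinc finger factor, had 16.6 FPKM with PDX1 siRNA and 27.2 FPKM with control siRNA in Panc.05.04, and 16.1 FPKM with PDX1 siRNA and 3.29 FPKM with control siRNA in Panc.10.05. BCL3, an atypical IkB protein that binds NF-kB subunits, had 45.8 FPKM in the PDX1 siRNA and 78.6 FPKM in the control siRNA library of Panc.05.04, against 30.05 and 16.6 FPKM in the PDX1 siRNA and control siRNA libraries of Panc.10.05. ZC3H12A, a ribonuclease that degrades cytokine mRNAs, had 21.3 FPKM with PDX1 siRNA and 36.5 FPKM with control siRNA in Panc.05.04, and 13.9 FPKM with PDX1 siRNA and 6.82 FPKM with control siRNA in Panc.10.05. The 14 transcription, chromatin and NF-kB regulators (with TNFAIP2, BCL6, HDAC5, ZNF385A, CXXC5, TSC22D1, PNRC1 and HIST1H2BD) had medians of -0.75 in Panc.05.04 and 0.89 in Panc.10.05.

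Redox and metabolic members ranged widely in level. SOD2, the mitochondrial superoxide dismutase and an NF-kB target, had 569 FPKM with PDX1 siRNA and 962 FPKM with control siRNA in Panc.05.04, and 55.04 FPKM with PDX1 siRNA and 25.3 FPKM with control siRNA in Panc.10.05. C15orf48, which encodes a small mitochondrial protein, had 132 FPKM in the PDX1 siRNA and 211 FPKM in the control siRNA library of Panc.05.04, against 1002 and 519 FPKM in the PDX1 siRNA and control siRNA libraries of Panc.10.05. They were ranked opposite by level, SOD2 being far higher in Panc.05.04 and C15orf48 in Panc.10.05, with similar log2 ratios in each line. MT1F, a metallothionein with close paralogs, had 26.4 FPKM with PDX1 siRNA and 66.6 FPKM with control siRNA in Panc.05.04, and 8.396 FPKM with PDX1 siRNA and 4.67 FPKM with control siRNA in Panc.10.05. Other metallothioneins did not share its direction in Panc.10.05, where MT1X, MT1E and MT2A had log2 ratios of -0.75, -0.89 and -0.86, against -0.82, -0.52 and -0.05 in Panc.05.04. MT2A and MT1E stood at far higher levels than MT1F in both lines. The 12 genes of this group (with ASS1, PTGS2, CYP1B1, ALDH3B1, ECH1, SQRDL, NOXA1, PPAP2B and LYRM9) had medians of -0.82 in Panc.05.04 and 0.91 in Panc.10.05.

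Lysosomal and apoptosis genes were few. CTSB, the lysosomal protease cathepsin B, had 235 FPKM with PDX1 siRNA and 379 FPKM with control siRNA in Panc.05.04, and 63.98 FPKM with PDX1 siRNA and 31.6 FPKM with control siRNA in Panc.10.05. The BH3-only genes BBC3 and BMF had log2 ratios of -0.67 and -0.66 in Panc.05.04 and 0.89 and 0.74 in Panc.10.05. Of 37 apoptosis regulators compared, BBC3, BMF and TNFRSF21 were opposite, all in this direction, against 0.644% of all rows. The list's median log2 ratio was -0.04 in Panc.05.04, where 3 genes were at least 1.5-fold lower and 0 higher. In Panc.10.05 it was 0.09, with 10 genes higher and 2 lower, against 8.89% and 7.67% of all rows. RNASET2 and the remaining 6 protein-coding members (GSN, CAPG, TNS2, CRIP2, ODF3B and YPEL3) include 2 actin filament proteins, gelsolin (GSN) and CAPG. GSN had 12.6 FPKM in the PDX1 siRNA and 24.8 FPKM in the control siRNA library of Panc.05.04, against 25.9 and 11.1 FPKM in the PDX1 siRNA and control siRNA libraries of Panc.10.05.

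Targets of YAP and TAZ held members of the first direction. Of 35 YAP and TAZ target genes compared, 2 were opposite, CTGF among them, with a list median of 0.19 in Panc.05.04, where 6 were at least 1.5-fold higher and 1 lower, and of -0.50 in Panc.10.05, where 1 was higher and 11 lower. Of all rows, 0.289% were opposite in this direction, 1.35% were higher in Panc.05.04 and 7.67% lower in Panc.10.05. CYR61, the paralog of CTGF, was no member, with log2 ratios of 0.42 in Panc.05.04 and -1.19 in Panc.10.05. ANKRD1, another YAP target, was just outside the rule with 1.72 in Panc.05.04 and -0.57 in Panc.10.05. It had 58.8 FPKM in the PDX1 siRNA and 17.1 FPKM in the control siRNA library of Panc.05.04, against 8.68 and 13.4 FPKM in the PDX1 siRNA and control siRNA libraries of Panc.10.05.

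Lists of proliferation genes differed between the lines, with no opposite row in either list. Of 52 genes of G1/S and DNA replication, 36 were at least 1.5-fold lower in Panc.10.05, with a median of -0.80, and 0 passed the limit in Panc.05.04, with a median of 0.07. For 56 genes of G2/M and mitosis, 34 were lower in Panc.10.05, at a median of -0.64, and 0 passed in Panc.05.04, at a median of 0.12. Of all rows, 7.67% were lower in Panc.10.05. CDC25A, described above, is an opposite member outside both lists. Tubulin genes had the lowest median in Panc.10.05, -1.21 over 12 genes, against 0.05 in Panc.05.04. Other lists held few opposite members. Over all rows, 0.289% were opposite in the first direction and 0.644% in the reverse. Members of the first direction were HIST1H4A of 14 histones, and SLC7A11 of 34 amino acid stress genes and of 23 NRF2 targets. ANKRD37 was 1 of 39 glycolysis and hypoxia genes. Members of the reverse direction were HIST1H2BD of the 14 histones, and CEBPB and GDF15 of the 34 amino acid stress genes. Further ones were MT1F of 6 metallothioneins, BBC3 and GDF15 of 24 p53 targets, and CTSB of 34 lysosome genes. ELF3 was 1 of 22 pancreas and endoderm factors, TMEM45B 1 of 25 classical and SERPINB4 1 of 26 basal-like subtype genes. With so few members each, nothing is read from these lists.

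**Figure D4:**
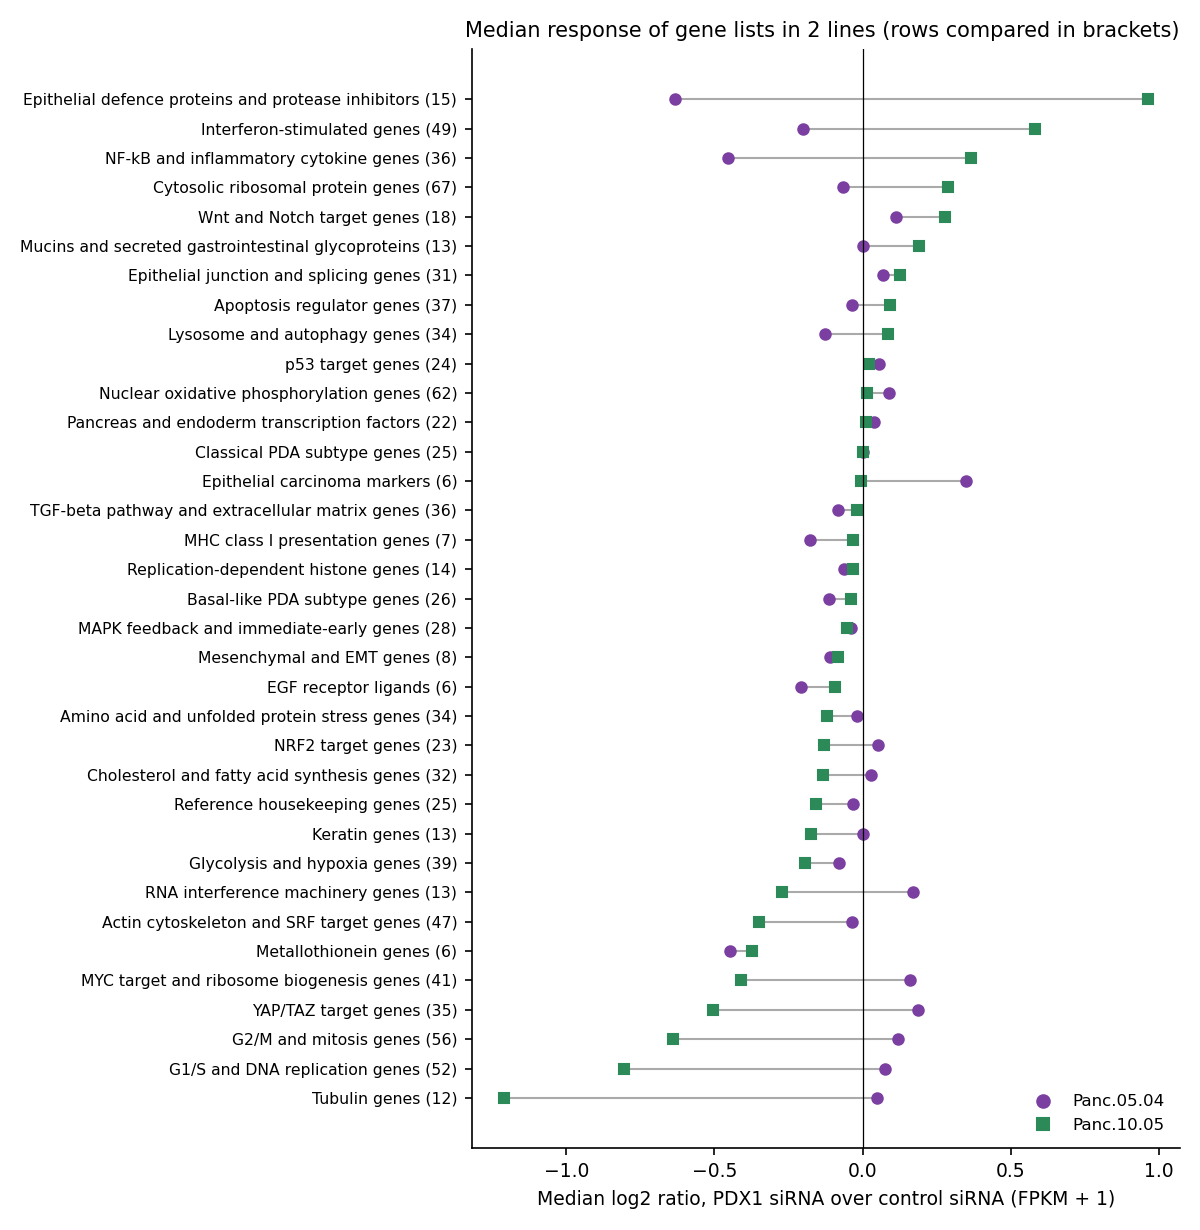
Median log2 ratio of PDX1 siRNA over control siRNA on FPKM + 1 for each gene list with at least 5 rows compared, in Panc.05.04 (purple circles) and Panc.10.05 (green squares), with the number of rows in brackets. Epithelial defence genes (-0.63 in Panc.05.04 and 0.96 in Panc.10.05) and tubulin genes (0.05 in Panc.05.04 and -1.21 in Panc.10.05) lie at the ends of the order.

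The members were then followed in Panc.8 and HPAF-II, whose ratios the rule did not use. Of the 78 rows lower in Panc.05.04 and higher in Panc.10.05, 26 (33.3%) were at least 1.5-fold higher in Panc.8 and 0 were lower, against 3.13% and 1.09% of all rows. Their median log2 ratio in Panc.8 was 0.26, and 60 of the 78 (76.9%) were above 0, against 48.1% of all rows. In HPAF-II 3 rows (3.85%) were higher and 1 (1.28%) lower, against 0.595% and 0.479% of all rows, with a median of 0.01. Members of this direction were 1.5-fold above their controls in Panc.8 more often than all rows were, which was not tested, and most stayed within the limit in HPAF-II. Higher values in Panc.8 were not particular to members. They were found in 137 of the 1076 rows higher in Panc.10.05, and in 47 of the 235 rows lower in Panc.05.04. Both counts include the 26 members.

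By the role groups formed after the values were seen, counts in Panc.8 were as follows, with no test between groups and 3.13% of all rows higher. All 6 interferon-inducible genes (IFI6, IFITM2, IFITM3, GBP2, UBA7 and RARRES3) were at least 1.5-fold higher there, with a median of 1.45, and 8 of the 10 cytokine and complement genes were, with a median of 0.99. Genes of these kinds were often higher in Panc.8 whether or not they were members. All 49 interferon-stimulated genes compared passed there, and so did 18 of the 36 NF-kB and inflammatory cytokine genes. Among surface proteins 3 of 16 passed, among regulators 2 of 14, and among metabolic and redox genes 3 of 12. Among epithelial defence proteins 2 of 6 passed, among lysosomal and apoptosis genes 1 of 4, and among cytoskeletal and other genes 1 of 6. C1R had 61.5 FPKM with PDX1 siRNA and 12.4 FPKM with control siRNA in Panc.8, and IFI6 had 3398 FPKM with PDX1 siRNA and 289.6 FPKM with control siRNA. SLC15A3, a lysosomal peptide carrier, had 84.2 FPKM with PDX1 siRNA and 13.7 FPKM with control siRNA. Without such differences were AQP3, with 1177 FPKM with PDX1 siRNA and 1127 FPKM with control siRNA, and TNFRSF21, with 235 FPKM with PDX1 siRNA and 240.0 FPKM with control siRNA.

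Of the 35 rows higher in Panc.05.04 and lower in Panc.10.05, 4 (11.4%) were at least 1.5-fold higher and 3 (8.57%) lower in Panc.8, against 3.13% and 1.09% of all rows, with a median log2 ratio of 0.06. In HPAF-II 1 row (2.86%) was higher and 1 (2.86%) lower, against 0.595% and 0.479% of all rows, and the median was 0.08. In Panc.8 CTGF had 1.85 FPKM with PDX1 siRNA and 1.83 FPKM with control siRNA. In Panc.8, 22 of the 35 rows (62.9%) were above 0 and 10 below, and of the 25 protein-coding rows 21 (84%) were above 0 and 4 below, while 48.1% of all rows and 48.8% of all protein-coding rows were above 0. In HPAF-II 19 rows (54.3%) were above 0 and 12 below, close to the 53.7% of all rows above 0. These shares were not tested.

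**Figure D5:**
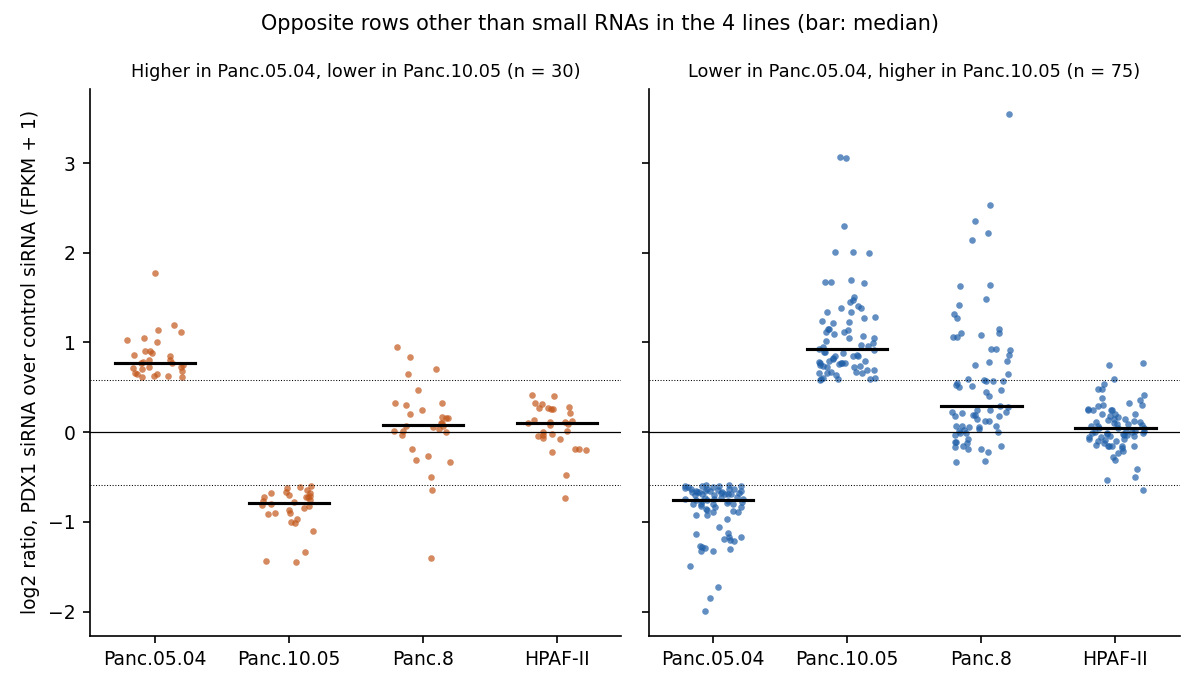
Log2 ratio of PDX1 siRNA over control siRNA on FPKM + 1 of the 30 and 75 opposite rows other than small RNAs in the 4 lines, 1 point per row, with the median as a bar and dotted lines at 1.5-fold. The left 2 columns of each panel are separated by the rule itself; in Panc.8 the 75 rows on the right have a median of 0.29 with 26 above the upper line, and in HPAF-II both sets centre near 0.

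Levels with control siRNA did not divide the members by line. The rows higher in Panc.05.04 had a median of 15.5 FPKM with PDX1 siRNA and 4.79 FPKM with control siRNA in that line, and of 1.97 FPKM with PDX1 siRNA and 6.001 FPKM with control siRNA in Panc.10.05. The rows lower in Panc.05.04 had medians of 4.87 FPKM with PDX1 siRNA and 9.12 FPKM with control siRNA there, and of 26.7 FPKM with PDX1 siRNA and 11.2 FPKM with control siRNA in Panc.10.05. In the control libraries, 18 of the 35 rows and 44 of the 78 rows were higher in Panc.05.04 than in Panc.10.05, against 43.3% of all rows. The gap between the lines was wider with PDX1 siRNA in 25 of 35 and 52 of 78 members, against 55.3% of all rows. The rule itself favours a wider gap, since it takes rows whose lines move apart with PDX1 siRNA where control levels are close, so nothing is read from these counts. Whether the tables of the 2 lines were scaled together is not stated, so levels set across them carry that limit.

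Rows near the limit show how finely the rule divides. Just inside it in the first direction, HIST1H4A had log2 ratios of 0.85 in Panc.05.04 and -0.61 in Panc.10.05, and DPF1 had 0.66 in Panc.05.04 and -0.60 in Panc.10.05. Just outside it, CDK6 had 0.57 in Panc.05.04 and -0.69 in Panc.10.05. In the reverse direction CXXC5 (-0.69 in Panc.05.04 and 0.59 in Panc.10.05) and CD68 (-1.22 and 0.59) were inside, and TNFRSF1B (-0.57 and 0.73) was outside. The limit is 0.58 on the log2 scale. Between 0.32 and that limit in the line with the smaller ratio there were 252 further rows in the first direction and 243 in the reverse.

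The authors' own test in the deposited tables called few of these rows. At a q of at most 0.05, the authors' deposited table of Panc.05.04 called 0.264% of the 12110 rows and that of Panc.10.05 called 0.0991%. In Panc.05.04 the authors' deposited table called 3 rows that were higher, CTGF and CTPS1 among them, and 7 that were lower, ANPEP, SLPI, CXCL8, LCN2, CXCL1, PTGS2 and C1S. In Panc.10.05 it called ASS1 and GBP2, and 0 members were called in both lines. For CTGF the authors' deposited tables give q = 0.0209 in Panc.05.04 and q = 0.669 in Panc.10.05. These q-values compare 2 libraries and not the conditions.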

How the data were processed

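RNA-seq libraries of 4 established PDA lines were used, 8 in all, 1 per line with PDX1 siRNA and 1 with control siRNA, 3 days after transfection. The genome build was hg38 and the tools were Cuffdiff, Cufflinks and TopHat2 (version 2), per the submitters' processing notes. What each tool did, the annotation, strand and depth are not stated there. The authors deposited 1 table of 28520 rows per line with FPKM values for both libraries, and with p-values and q-values that are quoted as theirs. No count model was applied, since FPKM is a scaled value. The FPKM columns hold values of 0 that may be failed estimates, and no fold is given against them.

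Tables were joined by row identifier. The log2 ratio of the PDX1 siRNA to the control siRNA library was computed on FPKM + 1, which understates differences of low genes, for 12110 rows with a mean of at least 1 FPKM. A row counted as higher or lower at 1.5-fold. With 1 library per line and treatment, no test was made. The classification code was run on simulated data, with planted changes above the limit in rows of high FPKM and with little noise. That run checks the code only and does not bear on ratios near the limit or at low FPKM. Gene types came from RefSeq by symbol or synonym for 98.9% of the rows compared. Starts in the files were read as counted from 0, and 1 was added.

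The members and the gene lists were chosen with earlier results of these data known. Named genes were PDX1; in each direction the 12 protein-coding rows with the widest difference of log2 ratios among those above 0 FPKM in all 4 libraries; the 5 with the highest mean FPKM; the long noncoding rows; the members of each gene list; and rows nearest the limit. The role groups, the small RNA rows, list genes that are no members and members named beyond that rule were chosen after their values were seen. Some members and 1 marker are not reported here by name. Alternatives were the pseudocount, the filter, the fold limit, centring, upper quartile scaling and row type. No 2 libraries were copies of each other (at most 0.00875% of rows equal). Python 3.11.15, numpy 2.4.6, pandas 2.3.3 and matplotlib 3.10.9 were used.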

Additional observations from a re-analysis of the deposited data

Results flagged for a closer look

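The ratios of the 2 lines pointed in opposite directions for 35 rows that were higher with PDX1 siRNA in Panc.05.04 and lower in Panc.10.05, and for 78 rows of the reverse direction. These rows were chosen for that property and the difference was not tested, since each line and treatment has 1 library. Among rows higher in Panc.05.04, the difference of the log2 ratios (Panc.05.04 minus Panc.10.05) was 2.55 for CTGF, 2.06 for NOCT, 2.06 for CTPS1, 2.01 for VEPH1 and 2.01 for BEST3. It was 1.80 for HSPB8, 1.79 for ANKRD37, 1.76 for RHOB, 1.68 for JPH1, 1.67 for SH2D5 and 1.61 for SLC7A11. Among rows lower in Panc.05.04, the same difference was -4.02 for ANPEP, -3.95 for ODF3B, -3.85 for ASS1, -3.66 for SLPI, -3.53 for S100A9 and -2.99 for CXCL8. It was -2.88 for GDF15, -2.79 for CD82, -2.74 for LCN2, -2.68 for ZNF467, -2.66 for AQP3 and -2.66 for GBP2.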

How the results depend on the processing

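The number of opposite rows depends on the pseudocount and the fold limit. Against 35 rows higher in Panc.05.04 and lower in Panc.10.05, 78 of the reverse direction and 34 of one direction, a pseudocount of 0.1 FPKM gave 85, 203 and 143, with all 35 and 78 members kept, and a pseudocount of 5 FPKM gave 14, 30 and 12. A looser fold limit (0.32 on the log2 scale) gave 303, 354 and 282, and a limit of 2 gave 6, 16 and 12. A mean of at least 5 FPKM gave 22 opposite rows of the first direction and 22 of one direction, and at least 1 FPKM in all 4 libraries of the 2 lines, an alternative chosen after seeing the data, gave 23 and 21. The median log2 ratio in Panc.8 of rows lower in Panc.05.04 and higher in Panc.10.05, 0.26, was 0.41 at a mean of at least 5 FPKM, 0.088 at the looser fold limit, 0.49 at a fold of 2 and 0.41 with centred log2 ratios. These settings select other rows by construction. The other 71 values for the sets under alternatives stayed within the limits set for a shift, and 0 reversed. Those limits are wide: a fall from 35 to 25 rows of the first direction was within them. It occurred with protein-coding rows only, and with a mean of at least 1 FPKM taken over Panc.8 and HPAF-II. For single genes, 78 values stayed, 22 moved and 0 reversed. No paired analysis was possible because each line and treatment has 1 library, and no replicate could be left out.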
